A study of Mus musculus with 9 samples.

Results

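Chromosomal DNA replication in mouse macrophages was followed through 42 genes that encode the replication machinery, out of 25494 genes in the deposited expression table. The 42 were taken by gene symbol from a set list covering the replicative helicase and its activators, the sliding clamp and its loader, the DNA polymerases and primase, the single-strand binding complex, the enzymes that join Okazaki fragments, the origin licensing factors and the enzymes that supply deoxynucleotides. The list names genes by function and has no threshold on a measured value. Each symbol matched 1 identifier, and all 42 genes were among the 13159 genes whose mean fitted count over the libraries was at least 10.

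Total RNA depleted of ribosomal RNA was sequenced from bone marrow-derived macrophages of TTP-deficient mice. TTP (tristetraprolin, gene Zfp36) is an RNA-binding protein that binds AU-rich elements in 3′UTRs and promotes decay of the bound mRNAs. The cells of every group were immortalized with hcmyc and hRasG12V, were positive for macrophage surface markers, and carried a tetracycline-inducible vector. In the GFP group the vector encoded GFP, in the TTP group GFP fused to wild-type TTP, and in the TTP-AA group GFP fused to TTP with the exchanges S52A and S178A, which remove the serines phosphorylated by the kinase MK2. All 9 libraries, 3 per group, came from cells given 1 µg/ml doxycycline for 6 h and 1 µg/ml LPS (lipopolysaccharide, a bacterial cell-wall component) for 1 h. Each group was 1 transduced, GFP-sorted cell line, so a difference between transgenes and a difference between lines cannot be told apart. No library without doxycycline was analysed here.

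DNA replication begins with licensing, when the origin recognition complex, Cdc6 and Cdt1 load the ring of Mcm2 to Mcm7 onto DNA in G1 phase. At the start of S phase, Cdc45 and the GINS complex turn the loaded ring into a working helicase, and primase, the polymerases, the clamp Pcna and replication protein A (RPA) assemble at the fork. Transcription of many of these genes is periodic in the cell cycle and is driven by E2F transcription factors, which are held back by the retinoblastoma family. In bulk RNA, fewer cells in S phase and less RNA per cell cannot be told apart.

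The deposited expression values set the limit of every result below. They are fitted means of a model with a term for the condition and a term that follows the replicate number, and not 9 separate measurements. After centring, 4 singular values of the table differed from 0, where 9 libraries free to vary give 8, no value was 0 or whole, and the largest departure from the additive model was 1.4e-14 on the log2 scale. The scatter between replicates is therefore not in these values, and no test of a difference was possible. Each log2 difference is given with a standard error (SE) that covers the counting of reads only, and is read against the replicate-number range, which is the highest minus the lowest of the 3 replicate-number means of that gene on the log2 scale. A difference of 0.5 on the log2 scale was taken as past the fold threshold. The sums of the fitted counts ran from 21482954 (TTP replicate 1) to 102613526 (TTP-AA replicate 3), and levels below are normalised fitted counts, that is fitted counts divided by a median-ratio library factor. For the 42 genes the counting SE lay between 0.0085 and 0.05, far below most replicate-number ranges, whose median was 0.17 for these genes and 0.32 for all genes.

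Zfp36, the gene that was disrupted and then supplied, had normalised fitted counts of 1744, 1423 and 890.2 in the GFP libraries, of 1787, 1447 and 913 in the TTP libraries, and of 2828, 2298 and 1443 in the TTP-AA libraries. Its log2 difference was 0.03 in TTP vs GFP and 0.69 in TTP-AA vs GFP, against a replicate-number range of 0.97. The TTP and GFP groups are therefore named by their labels, since this gene does not tell them apart. All 10 macrophage markers examined were present, with a summed level of 582863 to 804066 in GFP, 486526 to 663126 in TTP and 666632 to 914146 in TTP-AA. Most of this sum was Lyz2, with means of 597422 in GFP, 486987 in TTP and 674451 in TTP-AA. Of the 10 markers, 7 were lower in TTP vs GFP, 6 were higher in TTP-AA vs GFP and 9 were higher in TTP-AA vs TTP. The largest differences were those of Fcgr1, at -1.21, -0.39 and 0.83 in that order, and of Adgre1, which encodes an adhesion receptor typical of macrophages, at -0.76, 0.68 and 1.44. The T cell, B cell, fibroblast, epithelial and erythroid markers all had means below 10. The neutrophil markers, of which only S100a8 reached a mean of 10, summed to 113 to 181 in GFP, 115 to 183 in TTP and 192 to 308 in TTP-AA. The dendritic cell markers summed to 288 to 344 in GFP, 277 to 328 in TTP and 229 to 278 in TTP-AA. The part of these marker levels in the results on replication genes was not tested.

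The promoters of these genes are shown first, because many replication genes are known targets of E2F. Promoter sequences, from 250 bases before to 50 bases after the start of transcription, were available from RefSeq (GRCm38.p6) for 34 of the 42 genes. They were searched on both strands for 4 spellings of the E2F site, TTTCCCGC, TTTCGCGC, TTTGCCGC and TTTGGCGC. At least 1 match was found for 14 of the 34 genes (41.2%), against 445 of 9293 genes with a mean of at least 10 (4.79%) and 704 of 27025 genes with any promoter in the table (2.6%). The CCAAT box, searched on both strands as well, was found for 22 of the 34 genes (64.7%) and for 43.5% of the 9293. A match describes the letters in this window and does not show that a factor binds there. In the following windows, written 5′ to 3′ on the strand of the gene, the capitals mark 1 E2F match per window. A further match inside the windows of Mcm5, Mcm6 and Rfc3 is not marked. Each window is given with its place in GRCm38.
Mcm3, chr1:20820270-20820309, minus strand: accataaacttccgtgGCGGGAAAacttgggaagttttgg
Mcm5, chr8:75109340-75109379, plus strand: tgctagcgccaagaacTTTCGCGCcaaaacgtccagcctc
Mcm6, chr1:128359792-128359831, minus strand: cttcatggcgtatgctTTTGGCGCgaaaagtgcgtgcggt
Mcm7, chr5:138171844-138171883, minus strand: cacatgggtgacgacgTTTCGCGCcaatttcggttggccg
Rfc3, chr5:151651195-151651234, minus strand: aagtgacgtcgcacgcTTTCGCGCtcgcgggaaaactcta
Pola1, chrX:93632270-93632309, minus strand: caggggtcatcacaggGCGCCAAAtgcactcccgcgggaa
Lig1, chr7:13278836-13278875, plus strand: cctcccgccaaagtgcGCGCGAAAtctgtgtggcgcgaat
Orc1, chr4:108579411-108579450, plus strand: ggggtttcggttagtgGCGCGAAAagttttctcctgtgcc
Cdc6, chr11:98907997-98908036, plus strand: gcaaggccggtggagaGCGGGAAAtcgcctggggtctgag
The other genes with a match were Pold1, Pold3, Pole2, Gins3 and Cdt1. Mcm6 had 3 matches, and Mcm3, Mcm5, Mcm7 and Rfc3 had 2 each, some of them overlapping.

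The other element of interest is the heptamer TATTTAT in the 3′UTR, the DNA spelling of the core of the AU-rich element that TTP binds. It was found in the 3′UTR of 5 of the 42 genes (11.9%), against 3135 of 11594 coding genes with a mean of at least 10 (27.0%). The 3′UTRs of the replication genes were also shorter, with a median of 468.5 bases against 939, each read from the transcript that codes for the longest protein. The 5 sites are shown because a direct effect of TTP on these mRNAs would be looked for there. The capitals mark the heptamer on the strand of the gene.
Mcm2, chr6:88883818-88883846, minus strand: cattaaatgacTATTTATtcttctgcccc
Mcm5, chr8:75127878-75127906, plus strand: ctccagggcttTATTTATagcaagtgggc
Cdc45, chr16:18780522-18780550, minus strand: ctccttttcctTATTTATatttcctggcc
Orc1, chr4:108614579-108614607, plus strand: ttattttccatTATTTATtttgctttttc
Cdc6, chr11:98921865-98921893, plus strand: gattgtgaataTATTTATtttcaagtttc

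The replication genes were higher in the TTP group than in the GFP group by a small and widely shared amount. In TTP vs GFP, 38 of the 42 genes were higher, while 49.6% of all genes were, and the median log2 difference was 0.20 against -0.00 for all genes. In TTP-AA vs GFP, 25 of the 42 were higher, where 50.4% of all genes were, with a median of 0.04. In TTP-AA vs TTP, only 8 of the 42 were higher, where 50.0% of all genes were, and the median was -0.16. The comparisons TTP vs GFP and TTP-AA vs GFP share the GFP libraries, and TTP vs GFP and TTP-AA vs TTP share the TTP libraries, so the 3 medians are not independent. Among the 8294 genes with a mean of at least 500, the medians were 0.01, -0.00 and -0.02 in the same order.

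**Figure D1:**
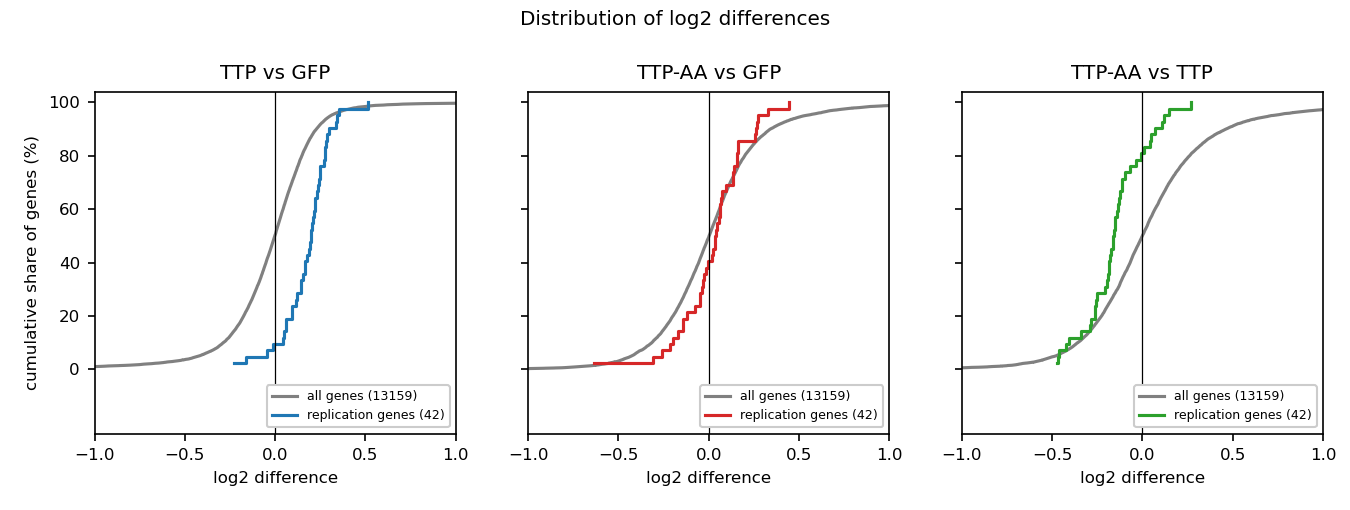
Cumulative share of genes (%) against the log2 difference in each of the 3 comparisons, with the 42 replication genes in colour and all 13159 genes in grey; genes beyond 1 on the log2 scale lie outside the axis. The coloured curve lies to the right of the grey one in TTP vs GFP (38 of 42 above 0) and to its left over most of its length in TTP-AA vs TTP (8 of 42 above 0).

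Single differences were small. At the threshold of 0.5 on the log2 scale, 1 of the 42 genes passed in TTP vs GFP (Fen1, higher), where 5.19% of all genes passed, and 1 passed in TTP-AA vs GFP (Rpa3, lower), where 8.64% did. None of the 42 passed in TTP-AA vs TTP, where 13.5% of all genes did. At a threshold of 0.25, 10 of the 42 were higher in TTP vs GFP against 8.21% of all genes, and 11 were lower in TTP-AA vs TTP against 17.8% of all genes. In either direction, 10 of the 42 passed 0.25 in TTP vs GFP against 20.7% of all genes, 9 in TTP-AA vs GFP against 30.5%, and 12 in TTP-AA vs TTP against 38.6%. Read against the gene's own replicate-number range, 26 of the 42 differences were larger in TTP vs GFP, 24 of them higher and 2 lower, where 19.5% of all genes were larger. The same count was 13 in TTP-AA vs GFP, with 8 higher and 5 lower, against 25.0% of all genes. It was 17 in TTP-AA vs TTP, with 1 higher and 16 lower, against 30.8% of all genes. This range is not the error of a difference, and its median was smaller for the 42 genes (0.17) than for all genes (0.32), which raises these counts. The median absolute log2 difference of the 42 genes was 0.20 in TTP vs GFP, 0.13 in TTP-AA vs GFP and 0.16 in TTP-AA vs TTP. For all genes it was 0.13, 0.16 and 0.19. The TTP group had the highest level for 32 of the 42 genes, as it did for 34.8% of all genes. The lowest level was in the GFP group for 24 of the 42, against 26.3% of all genes, and in the TTP-AA group for 16, which is near the share of 38.4% among all genes.

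**Figure D2:**
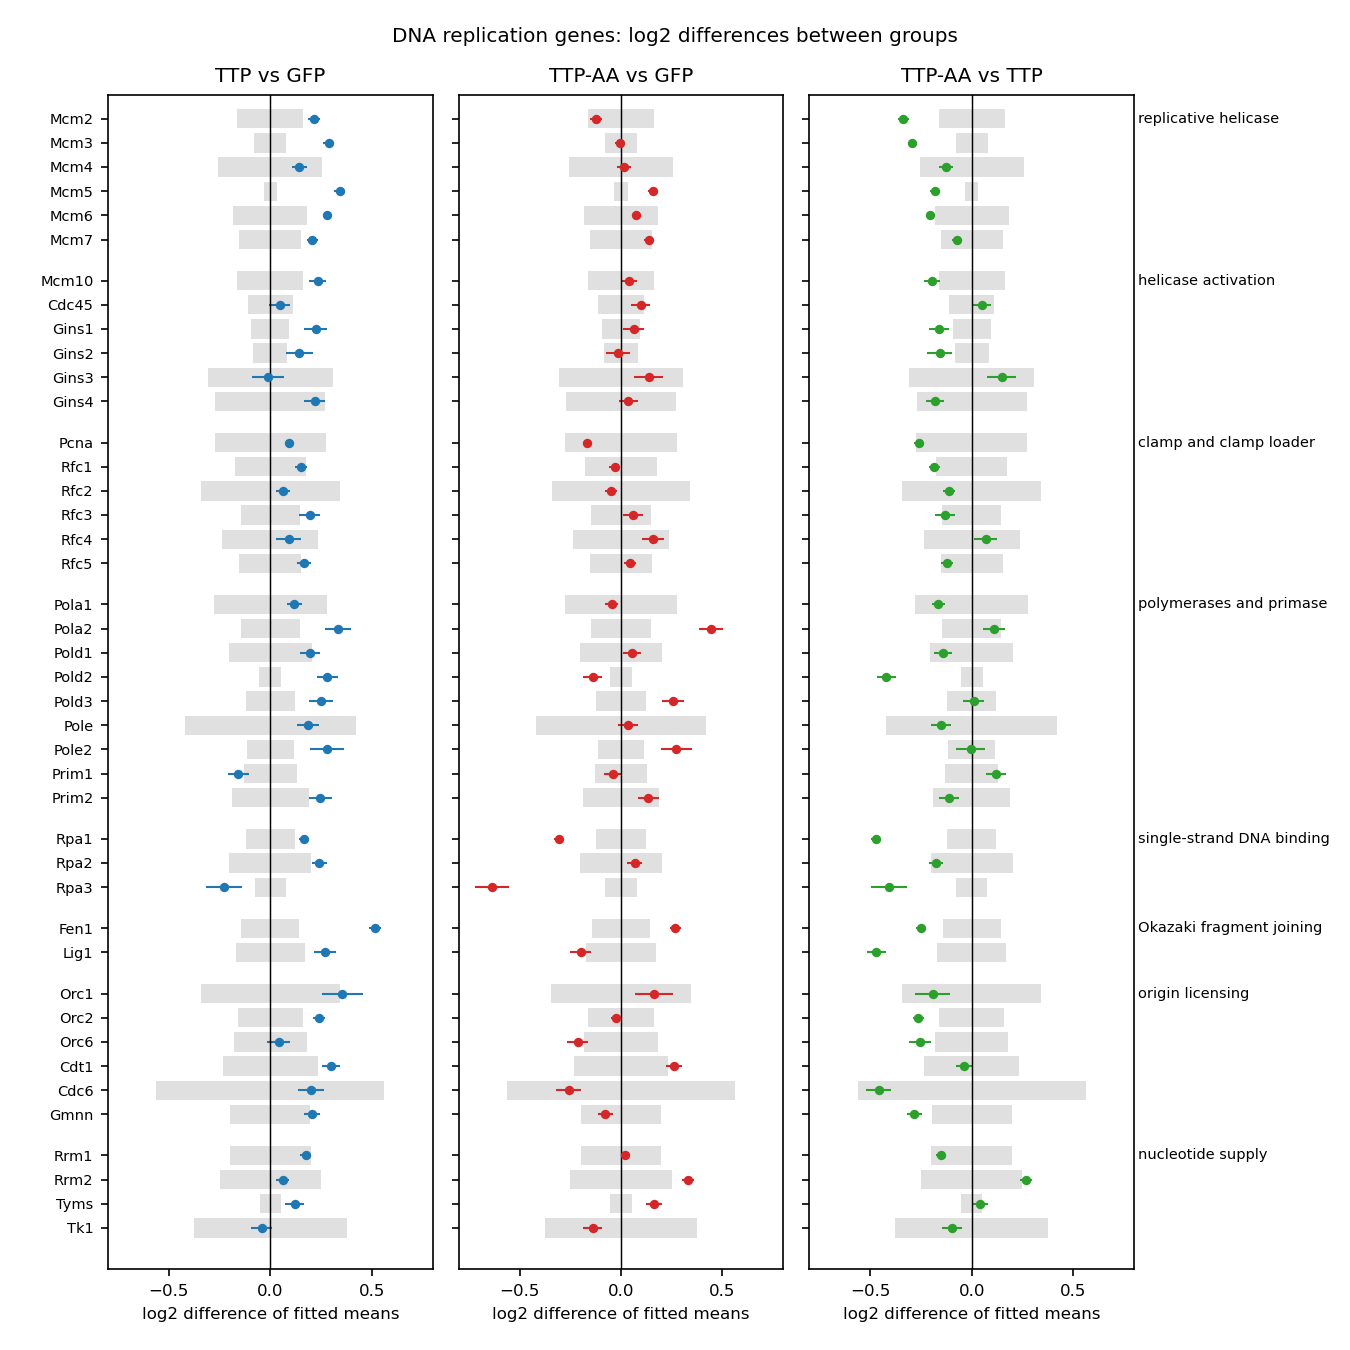
Log2 difference (horizontal axis) of each of the 42 genes, ordered by role, in the 3 comparisons. Bars through the points are 2 counting SE to each side, and the grey band runs from minus to plus the gene's replicate-number range, so that points outside it are the 26, 13 and 17 genes counted above.

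The replicative helicase unwinds DNA at the fork. All 6 subunits were higher in TTP than in GFP, with log2 differences from 0.14 (Mcm4) to 0.34 (Mcm5) and a median of 0.25. All 6 were lower in TTP-AA than in TTP, from -0.34 (Mcm2) to -0.07 (Mcm7), while TTP-AA vs GFP gave a median of 0.04. The difference was larger than the replicate-number range for 5 of 6 subunits in TTP vs GFP and for 4 of 6 in TTP-AA vs TTP. Mcm5, whose range was 0.03, had levels of 6839, 6881 and 6997 in GFP, 8684, 8674 and 8897 in TTP, and 7648, 7665 and 7821 in TTP-AA. The 3 groups did not overlap in Mcm5, with TTP highest and TTP-AA between. In additive values, 2 groups fail to overlap exactly where their difference exceeds the replicate-number range. Statements on overlap, here and below, restate that comparison and do not show agreement between replicates. Among all genes, 19.5% exceeded the range in TTP vs GFP, 25.0% in TTP-AA vs GFP and 30.8% in TTP-AA vs TTP.

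The helicase is switched on by Mcm10, Cdc45 and the 4 GINS subunits. Here 5 of the 6 genes were higher in TTP than in GFP, with a median of 0.18, and 4 of 6 were lower in TTP-AA than in TTP. Mcm10 (0.23), Gins1 (0.22) and Gins4 (0.22) had the largest differences in TTP vs GFP, that of Gins4 within its replicate-number range of 0.27. Cdc45 differed by 0.05 and Gins3 by -0.01, both within their replicate-number ranges of 0.11 and 0.31. Gins2 shares 2758 of its 4097 exon bases with Gse1 on the other strand, and whether reads were counted by strand is not given in the sources used here.

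Pcna is the ring that holds the polymerases on DNA, and replication factor C, encoded by Rfc1 to Rfc5, opens it. All 6 genes were higher in TTP than in GFP, by 0.06 (Rfc2) to 0.19 (Rfc3), but only 2 of these differences were larger than the replicate-number range. Pcna had levels of 11792, 13289 and 10948 in GFP, 12599, 14096 and 11714 in TTP, and 10506, 11793 and 9750 in TTP-AA. The groups overlapped, with a range over replicate numbers of 0.27 beside differences of 0.09, -0.17 and -0.26 in TTP vs GFP, TTP-AA vs GFP and TTP-AA vs TTP. Processed copies of Pcna exist in the genome, and reads were allowed 2 placements, so its count is uncertain to that extent.

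Of the 9 polymerase and primase genes, 8 were higher in TTP than in GFP, with a median of 0.25, and 6 lay below their TTP level in TTP-AA, with a median of -0.11. Pola2, the accessory subunit of DNA polymerase alpha, had levels of 1214, 1281 and 1342 in GFP, 1533, 1606 and 1698 in TTP, and 1654, 1738 and 1828 in TTP-AA. It was lowest in GFP without overlap, by 0.33 ± 0.032 (counting SE) in TTP and by 0.44 ± 0.029 in TTP-AA, while the TTP and TTP-AA libraries overlapped. Pold2, an accessory subunit of the lagging-strand polymerase delta, had levels of 2097, 2185 and 2128 in GFP, 2552, 2640.0 and 2593 in TTP, and 1905, 1978 and 1933 in TTP-AA. The 3 groups did not overlap, and the difference was 0.28 ± 0.025 in TTP vs GFP and -0.42 ± 0.023 in TTP-AA vs TTP, with a replicate-number range of 0.05. In TTP-AA vs GFP it was -0.14. With the median of all chromosome 11 genes (-0.10) subtracted, that difference was -0.04, within the range. Pold3, another subunit of polymerase delta, was higher in both TTP groups, by 0.25 and 0.26. Prim1, the catalytic subunit of primase, was the exception. It was lower in TTP than in GFP, with a log2 difference of -0.16, beyond its replicate-number range of 0.13, while its partner Prim2 was higher by 0.25. With the median of all chromosome 10 genes (-0.13) subtracted, the Prim1 difference in TTP vs GFP was -0.03, within the range.

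RPA coats single-stranded DNA and consists of 3 subunits, which did not move alike. Rpa3, the smallest, had levels of 816, 848 and 860.3 in GFP, 697, 719 and 737 in TTP, and 526, 544 and 554 in TTP-AA. The 3 groups did not overlap, with GFP highest and TTP-AA lowest, and the level in TTP-AA was 0.644 times that in GFP, a log2 difference of -0.64 ± 0.041. In TTP vs GFP the difference was -0.23 ± 0.044, and the replicate-number range was 0.08. Rpa1, the largest subunit, had levels of 9985, 10902 and 10133 in GFP, 11212, 12153 and 11394 in TTP, and 8082, 8789 and 8198 in TTP-AA. It was lowest in TTP-AA without overlap, with differences of -0.31 ± 0.011 in TTP-AA vs GFP and -0.47 ± 0.011 in TTP-AA vs TTP. Rpa2 was higher in TTP than in GFP by 0.24 and differed by 0.07 in TTP-AA vs GFP. The gap between Rpa3 and Rpa2 in TTP-AA vs GFP, which does not depend on how libraries were scaled, was 0.70 ± 0.045 on the log2 scale and the widest within any of the 11 complexes or pairs examined.

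Fen1, the flap endonuclease, and Lig1, DNA ligase 1, finish Okazaki fragments. Fen1 had levels of 6346, 6788 and 6122 in GFP, 9094, 9657 and 8785 in TTP, and 7649, 8149 and 7376 in TTP-AA. The 3 groups did not overlap, and the level in TTP was 1.43 times that in GFP, a log2 difference of 0.52 ± 0.014. It was higher in TTP-AA than in GFP by 0.27 and differed by -0.25 in TTP-AA vs TTP. Gene Gm10143 lies antisense to Fen1 over 1909 of its 2422 exon bases, so its count depends on a strand setting that is not known here. Lig1 had levels of 2024, 1833 and 2054 in GFP, 2446, 2199 and 2486 in TTP, and 1766, 1593 and 1792 in TTP-AA. Its TTP libraries lay above all others, and its difference was 0.27 ± 0.026 in TTP vs GFP, -0.20 ± 0.025 in TTP-AA vs GFP and -0.47 ± 0.024 in TTP-AA vs TTP.

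**Figure D3:**
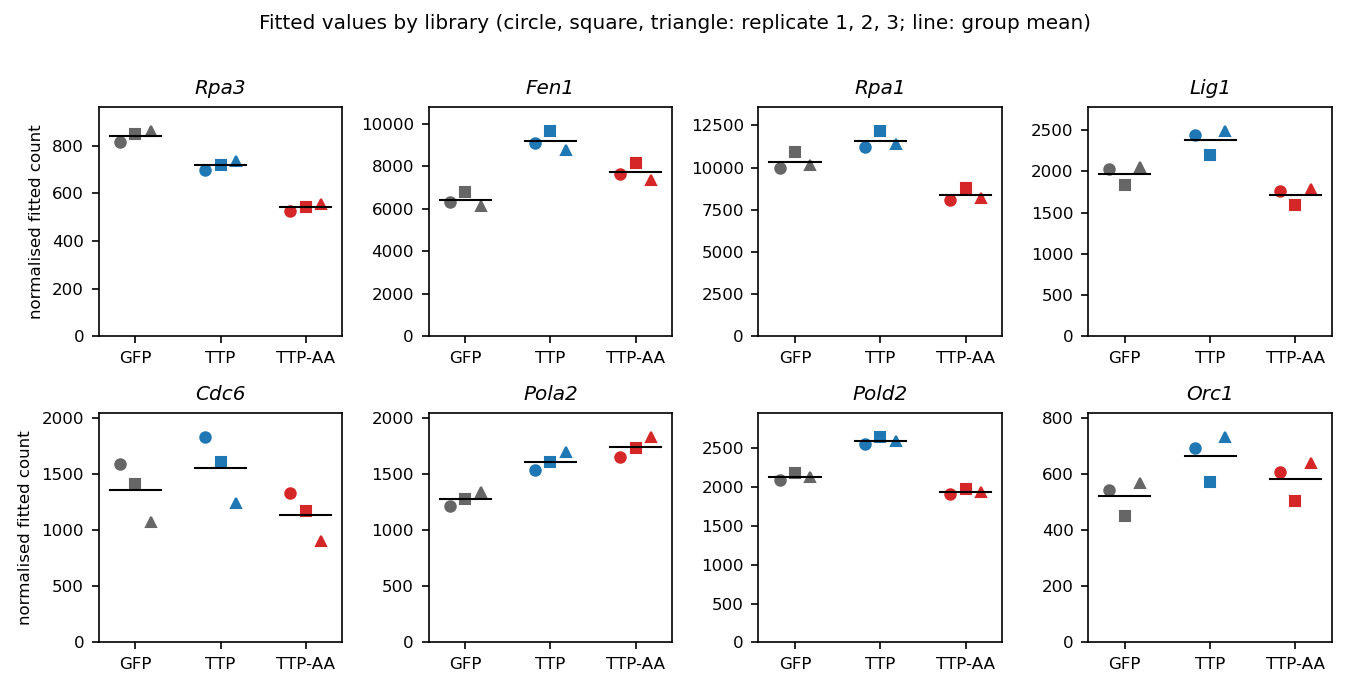
Normalised fitted count (vertical axis, from 0) of the 8 genes with the largest differences in each of the 9 libraries, by group. The lines are group means and the pattern of the 3 symbols is the same in each group because the values come from an additive model; Fen1 is highest in TTP (8785 to 9657) and Rpa3 lowest in TTP-AA (526 to 554).

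All 6 licensing genes were higher in TTP than in GFP, with a median of 0.22, and each was below its TTP level in TTP-AA, with a median of -0.26. Orc1, the subunit of the origin recognition complex whose level follows the cell cycle, had levels of 543, 452 and 570.4 in GFP, 696, 574 and 732 in TTP, and 608, 504 and 639 in TTP-AA. All TTP libraries lay above all GFP libraries, by 0.35 ± 0.05 against a replicate-number range of 0.34. Orc2 was higher by 0.24 and Orc6 by 0.04. Cdc6, the loader of the helicase, had levels of 1584, 1405 and 1073 in GFP, 1824, 1607 and 1238 in TTP, and 1327, 1172 and 898 in TTP-AA. The 3 groups overlapped, since replicate 3 was low in each, and the replicate-number range of 0.56 exceeded the differences of 0.20, -0.26 and -0.46. Cdt1, the partner of Cdc6, was higher than in GFP by 0.30 in TTP and 0.26 in TTP-AA, and Gmnn, which encodes the Cdt1 inhibitor geminin, differed by 0.21 and -0.08.

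The 4 genes of nucleotide supply differed least in TTP vs GFP, with a median of 0.09. Rrm1 and Rrm2 encode the large and the small subunit of ribonucleotide reductase. Rrm1 was higher in TTP than in GFP by 0.17, within its replicate-number range of 0.20. Rrm2 had levels of 5735, 4996 and 5916 in GFP, 5996, 5186 and 6195 in TTP, and 7218, 6263 and 7443 in TTP-AA. All of its TTP-AA libraries lay above all others, and its difference of 0.27 was the only one of the 42 in TTP-AA vs TTP that was higher beyond the replicate-number range. That range was 0.25. With the median of all chromosome 12 genes (0.10) subtracted, the Rrm2 difference in TTP-AA vs TTP was 0.17, within the range. Tyms, thymidylate synthase, differed by 0.12 in TTP vs GFP and 0.16 in TTP-AA vs GFP, and Tk1, thymidine kinase 1, by -0.04 and -0.14.

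Levels were compared between genes per kilobase of the transcript with the longest coding sequence. In the GFP group the helicase subunits spanned 1179 (Mcm4) to 5299 (Mcm6) normalised fitted counts per kilobase, although the ring holds 1 copy of each. Pcna had the highest level of the 42 genes, 7886 per kilobase, and Orc1 the lowest, 172. Within the origin recognition complex Orc2 stood 10.7-fold above Orc1, the widest span of any complex examined, while Rrm1 (2100.2) and Rrm2 (2524) were within 1.2-fold of each other. Orc2 shares 1150 of its 3857 exon bases with Nif3l1 on the other strand, so its level depends on a strand setting that is not known here.

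**Figure D4:**
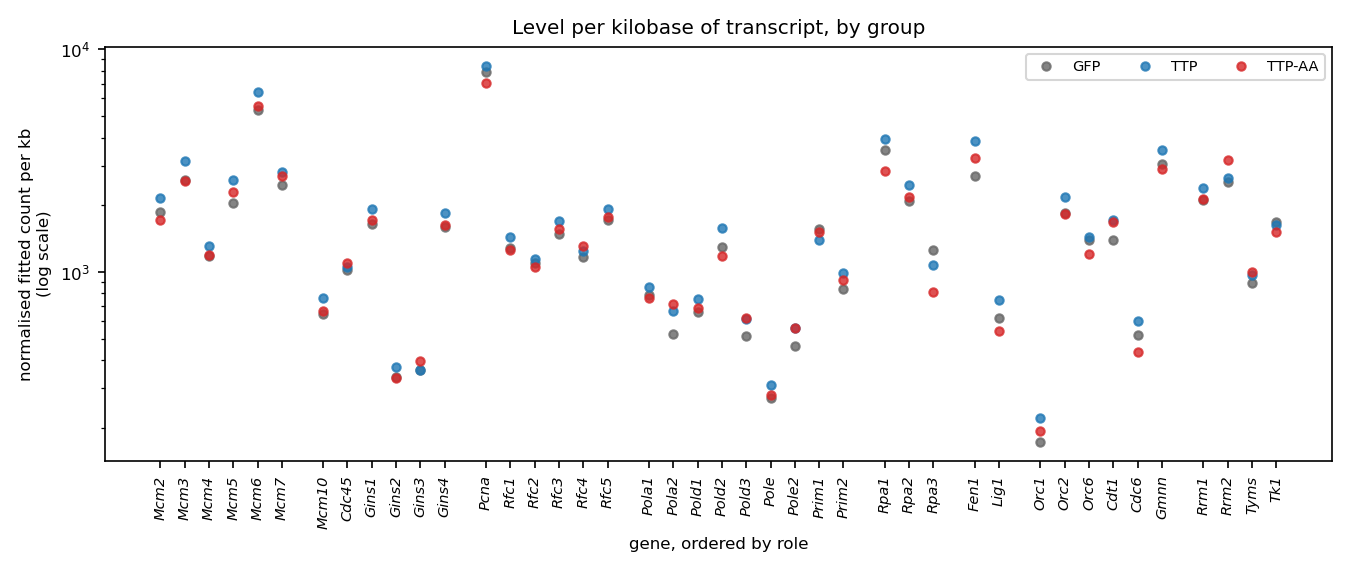
Level of each of the 42 genes in normalised fitted counts per kilobase of transcript (log axis), by group. The points of the 3 groups lie close together for each gene, from Orc1 at 172 to Pcna at 7886 in GFP.

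The median log2 difference of all genes varied between chromosomes, so the differences of the 42 genes were also read with it subtracted. The median log2 difference of all genes on chromosome 19 was 0.18 in TTP vs GFP and 0.10 in TTP-AA vs GFP, and Fen1 and Pola2 lie there. On chromosome 11, which holds Rpa1, Cdc6, Pold2 and Tk1, the median was -0.10 in TTP-AA vs GFP and -0.13 in TTP-AA vs TTP. On chromosome 12, with Rrm2 and Pole2, it was 0.15 in TTP-AA vs GFP. With the chromosome median subtracted, Fen1 differed by 0.33 and Pola2 by 0.15 in TTP vs GFP, and Rpa1, Cdc6 and Pold2 by -0.34, -0.33 and -0.29 in TTP-AA vs TTP. Other differences became larger. In TTP-AA vs TTP, Pola2 went from 0.11 to 0.21, Mcm4 from -0.13 to -0.26 and Rpa3 from -0.41 to -0.46. The Rpa3 difference became smaller in TTP vs GFP, from -0.23 to -0.16, and in TTP-AA vs GFP, from -0.64 to -0.61. Of the 42 genes, 38 were then higher in TTP vs GFP with a median of 0.18, 22 in TTP-AA vs GFP with a median of 0.02, and 5 in TTP-AA vs TTP with a median of -0.15.

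**Figure D5:**
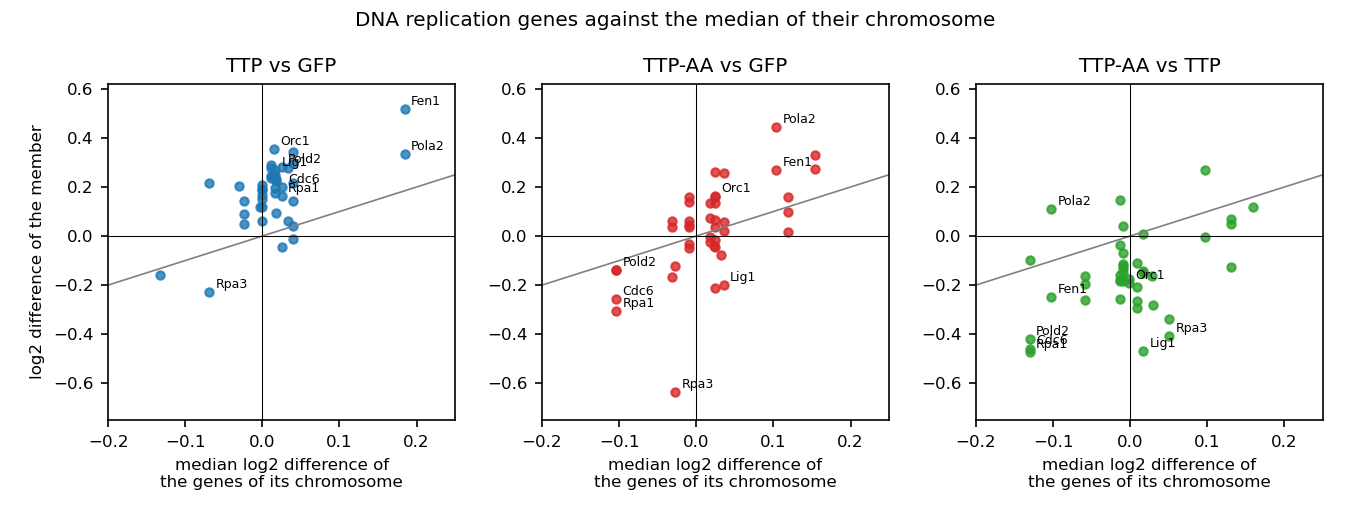
Log2 difference of each of the 42 genes (vertical axis) against the median log2 difference of all genes of its chromosome (horizontal axis), with the grey line marking equality. In TTP vs GFP 38 of 42 genes lie above the line, with Fen1 and Pola2 at the chromosome 19 median of 0.18, and in TTP-AA vs TTP 37 of 42 lie below it, with Pold2, Cdc6 and Rpa1 at the chromosome 11 median of -0.13.

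Genes with an E2F match in the promoter had a median log2 difference of 0.26 in TTP vs GFP (14 genes, 13 higher), and those without a match had 0.16 (20 genes, 17 higher). In TTP-AA vs GFP the medians were 0.10 and -0.00, and in TTP-AA vs TTP they were -0.15 and -0.18. The 5 genes with TATTTAT in the 3′UTR had medians of 0.21, 0.10 and -0.19 in the 3 comparisons, and the 37 without it 0.19, 0.04 and -0.15. The gene groups with and without either element therefore had medians within about 0.1 of each other, with no test of the gap.

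A list of 36 other replication genes, which holds accessory helicases, further polymerase subunits, checkpoint and chromatin assembly factors and nucleotide enzymes, gave 27 higher in TTP vs GFP, 15 in TTP-AA vs GFP and 10 in TTP-AA vs TTP. Their medians were 0.13, -0.02 and -0.16. Among all genes, 49.6%, 50.4% and 50.0% were higher in the same order. Of the 36, 13, 12 and 13 differed beyond their replicate-number ranges, where 19.5%, 25.0% and 30.8% of all genes did. Mcm8, a helicase related to the ring subunits, differed by 0.31 in TTP vs GFP and by -0.64 in TTP-AA vs TTP, both beyond its replicate-number range of 0.06. Uhrf1, which brings the maintenance DNA methyltransferase to new DNA, differed by 0.27 and -0.44, Dscc1 of an alternative clamp loader by 0.30 and -0.45, and Recql4 by 0.25 and -0.37. The nucleotide genes Rrm2b, a p53-dependent ribonucleotide reductase subunit, and Dck, deoxycytidine kinase, were lower in both TTP groups. Rrm2b differed by -0.28 in TTP and -0.77 in TTP-AA, and Dck by -0.30 and -0.47. The Rrm2b difference in TTP vs GFP was within its replicate-number range of 0.29.

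Of the 23 regulators of S-phase entry, 10 were higher in TTP vs GFP, 7 in TTP-AA vs GFP and 11 in TTP-AA vs TTP, with medians of -0.05, -0.05 and -0.10. Among all genes, 49.6%, 50.4% and 50.0% were higher in the same order. Ccnd2, a D-type cyclin, differed by 0.41 in TTP vs GFP and -0.58 in TTP-AA vs TTP, with a replicate-number range of 0.51. Skp2, which targets the CDK inhibitor p27 for degradation, differed by 0.15 in TTP vs GFP and -0.54 in TTP-AA vs TTP. Named after their values were seen, Ccne2, an E-type cyclin, and Cdc25a, a phosphatase that activates CDKs, were higher in TTP vs GFP (0.25 and 0.22) and lower in TTP-AA vs TTP (-0.31 and -0.25), all beyond their replicate-number ranges. Ccne1, another E-type cyclin, differed by 0.18 and -0.23, within its range of 0.28. Of the 23 regulators, 4 differed beyond the range in TTP vs GFP, 2 higher and 2 lower, where 19.5% of all genes did. In TTP-AA vs TTP 6 did, 1 higher and 5 lower, against 30.8% of all genes. The genes E2f1, E2f2, E2f3, E2f4, E2f7 and E2f8 differed by -0.13, -0.07, -0.14, -0.05, -0.29 and 0.09 in TTP vs GFP, all within their ranges. In TTP-AA vs TTP these E2F genes differed by -0.16, 0.08, 0.14, 0.29, 0.29 and 0.00, in the same order. Cdk2 differed by -0.52 in TTP vs GFP and Cdk4 by -0.25, and both lie on chromosome 10, whose median was -0.13. Cdkn1a, the CDK inhibitor p21, differed by -0.23 in TTP and -0.47 in TTP-AA. The difference of 0.49 for Myc in TTP-AA vs GFP was within its replicate-number range of 1.02.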

How the data were processed

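Total RNA was measured in 9 libraries (3 groups of 3). Per the labels and the study's methods, reads were trimmed, aligned to GRCm38 with TopHat allowing 2 placements per read, counted with HTSeq and modelled with DESeq2 1.6.3, with library date and condition as terms. The deposited signal values are fitted means from that model, made by the authors and not divided by library size. The other deposited tables hold the authors' fold changes and p-values, which were not used, and mean normalised counts (a signal as well), which were used only to check the fitted means.

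Library factors were medians of ratios, taken where a gene's mean reached 10, without a pseudocount, using Python 3.11.15, numpy 2.4.6 and pandas 2.3.3. Of repeated identifiers, 10 were dropped. The planned limma test applied only to values with replicate scatter and was not run. Counting SEs came from summed fitted counts and cover counting error only. The steps were tested on simulated data. Transcripts and overlaps came from GENCODE M21. Named genes were the 8 of the 42, and up to 6 of each other list, with the largest absolute difference. The 42 genes, the lists and the rules were chosen with earlier results of these data known. Alternatives were other library scalings, filters, a pseudocount of 1, other fold thresholds, leaving out each replicate number and chromosome centring.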

Additional observations from a re-analysis of the deposited data

How the results depend on the processing

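All values rest on fitted means, so depth limits only the counting error and the replicate error of a difference is unknown. No paired analysis was possible because the values are fitted means of a model that already holds a term following the replicate number, and no scatter is left. Leaving out a replicate number could not change a difference much, by construction of the additive values. The count of genes past the fold threshold depended on the threshold. At 0.25 it was 10 in TTP vs GFP, 9 in TTP-AA vs GFP and 12 in TTP-AA vs TTP, where 20.7%, 30.5% and 38.6% of all genes passed. At 1 it was 0 in TTP vs GFP and 0 in TTP-AA vs GFP. In TTP vs GFP it was also 0 with chromosome centring (Fen1 at 0.33, with the chromosome 19 median subtracted) and 0 with library factors from protein-coding genes with a mean of at least 1000 (Fen1 at 0.49). Both alternatives were chosen after seeing the data. With those library factors the median in TTP-AA vs TTP was -0.13. With chromosome centring 5 genes were higher in TTP-AA vs TTP. Of the 96 values of counts and medians recomputed, 87 stayed within the replicate spread or within 1.5 times, and of those for the 8 named genes 227 stayed and 13 moved, 12 of them with chromosome centring. Both tallies include the settings that left out a replicate number, which were bound to stay. The replicate spread used here was also taken from the fitted values, which hold no scatter between replicates. No named difference or median changed sign. Over the library scalings, filters, pseudocount and left-out replicate numbers, the genes higher numbered 38 in TTP vs GFP, 25 to 26 in TTP-AA vs GFP and 7 to 9 in TTP-AA vs TTP. Chromosome centring gave 38, 22 and 5.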
